A study of Homo sapiens with 31 samples.

Results

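The Notch receptors NOTCH1, NOTCH2, NOTCH3 and NOTCH4, the ligands JAG1, JAG2, DLL1 and DLL4 and the target genes HES1 and HES4 were examined across colon cell lines. These 10 genes were taken by symbol from a table of 17113 protein-coding genes, and all 10 had a row in it. Notch receptors sit in the plasma membrane and are activated by ligands on neighbouring cells. Ligand binding lets ADAM proteases and then the gamma-secretase complex cut the receptor, and the released intracellular part joins the DNA-binding protein RBPJ and a Mastermind coactivator at target promoters. In the intestine the pathway maintains crypt progenitors, and HES1 represses ATOH1, the factor that commits cells to the secretory lineage.

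RNA was sequenced in 31 libraries. LoVo, LS1034, HT-29 and HCT116 are lines of colorectal adenocarcinoma, and CCD841CoN is a line from normal colon. Each line gave 3 unmixed libraries, called libraries 1 to 3. The other 16 libraries held total RNA of one cancer line in CCD841CoN RNA at 0.1, 1, 10 or 50% cancer RNA, with 1 library per cancer line and percentage. The labels give every line as WT and name no treatment, and all lines grew in RPMI-1640 or DMEM with serum. CCD841CoN was the single normal line, so cancer status cannot be told apart from the kind of cell.

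Depth ran from 9688765 to 56741879 counts per library. All 10 listed epithelial markers reached 1 CPM (the library's coding counts scaled to 1000000) in LoVo, LS1034 and HT-29. In HCT116 6 of the 10 did so, and in CCD841CoN 2 of 10, which were KRT8 and KRT18, while KRT20, VIL1 and CDH17 had no count. The summed CPM of that list was 2568 to 24338 in the cancer libraries and 211 to 265 in CCD841CoN. All 10 fibroblast markers reached 1 CPM in CCD841CoN, with a sum of 2.15 to 31.9 CPM in the cancer libraries and 25578 to 30027 CPM in CCD841CoN. The labelled colon line therefore lacked most markers of colon epithelium, and the part of this in the results was not tested.

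The promoters of HES1 and HES4 are shown because these are the target genes among the members. Of the 10 genes, 9 matched RefSeq promoters of build GRCh38.p14, each with 250 bases before and 50 after the start. The reads themselves had been aligned to hg19. HES1 lies on the plus strand at chr3:194135898-194136197 and HES4 on the minus strand at chr1:1000048-1000347. Capitals mark TGGGAA, the core of the motif that RBPJ is known to bind:
HES1: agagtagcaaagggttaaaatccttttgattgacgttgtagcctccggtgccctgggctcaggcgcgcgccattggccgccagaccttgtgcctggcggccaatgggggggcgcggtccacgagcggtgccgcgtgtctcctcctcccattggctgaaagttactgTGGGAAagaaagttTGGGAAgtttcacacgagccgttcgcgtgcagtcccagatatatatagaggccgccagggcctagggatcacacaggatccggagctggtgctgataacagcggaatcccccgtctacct
HES4: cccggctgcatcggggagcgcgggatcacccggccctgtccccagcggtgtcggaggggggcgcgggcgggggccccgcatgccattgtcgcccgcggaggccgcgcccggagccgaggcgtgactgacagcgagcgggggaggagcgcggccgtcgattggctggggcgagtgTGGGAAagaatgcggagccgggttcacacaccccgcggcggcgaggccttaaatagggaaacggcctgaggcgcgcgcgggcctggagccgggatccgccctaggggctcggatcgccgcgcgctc

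Both promoters hold TGGGAA, read on both strands with TTCCCA as its reverse complement. HES1 holds it at bases 84 to 79 and 70 to 65 before the start, and HES4 at bases 76 to 71 before the start. The other 7 promoters that matched do not hold it, and 24.0% of 35116 promoters of the same length do. The longer TGTGGGAA, which overlaps the first match, is also in HES1 and HES4 alone among the 9, against 1.71% of all promoters. CACNAG, the box that HES1 itself is known to bind, is in 6 of the 9, namely NOTCH1, NOTCH2, NOTCH3, NOTCH4, DLL4 and HES1, against 38.0% of all promoters. These matches are letters in a window and not measured sites.

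Against CCD841CoN, the cancer lines carried more JAG2 and HES1 in every line, more JAG1 or NOTCH1 in some, less DLL4 in 3 of 4 and much less NOTCH3 in LS1034 and HT-29. Averaged over the 4 cancer lines, 7 of the 9 genes that passed the filter on low counts were called, 5 higher and 2 lower. Called genes had an adjusted p under 0.05 and a log2 fold change of 1 or more in either direction, in edgeR's quasi-likelihood test over all 14452 genes that passed the filter. By that rule 47.1% of all tested genes were called in the mean of the 4 lines, 24.8% higher and 22.3% lower. NOTCH4 did not pass the filter. Levels below are CPM, means are ± SD with n = 3 libraries per line, and log2 fold changes are ± SE on TMM-scaled counts, a scaling that evens out RNA composition.

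HES1, the repressor that Notch switches on, was higher in every cancer library than in any CCD841CoN library. It stood at 76.5, 66.0 and 99.3 CPM in LoVo and at 65.1, 66.3 and 56.7 CPM in LS1034. It stood at 61.6, 518 and 69.3 CPM in HT-29 and at 27.9, 19.3 and 21.1 CPM in HCT116, against 1.99, 2.14 and 4.54 CPM in CCD841CoN. HT-29 library 2 stands far above the other 2 HT-29 libraries, and HCT116 is the lowest cancer line. The log2 fold changes were 4.52 ± 0.69 in LoVo, 4.20 ± 0.68 in LS1034, 5.97 ± 0.73 in HT-29 and 2.71 ± 0.64 in HCT116 (edgeR adjusted p 4.44e-06 to 0.00217). Without HT-29 library 2 the HT-29 value was 4.22 (edgeR adjusted p = 2.42e-07).

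By mean CPM HES1 ran from HT-29 (216 ± 261) through LoVo (80.6 ± 17.1) and LS1034 (62.7 ± 5.22) to HCT116 (22.7 ± 4.54). HT-29 leads through library 2, and without it the HT-29 mean was 65.5 CPM, below LoVo. Neighbours in that order were not told apart: the log2 difference of LoVo over HT-29 was -1.45, of LoVo over LS1034 0.32 and of LS1034 over HCT116 1.48 (edgeR adjusted p 0.0577 to 0.731). HES1 was called higher in HT-29 than in HCT116 (3.26, edgeR adjusted p = 0.000818, and 1.58 without HT-29 library 2, adjusted p = 0.0024) and in LoVo than in HCT116 (1.80, edgeR adjusted p = 0.0347). The LoVo difference missed the threshold on leaving out LoVo library 1 or 3 or any HCT116 library (1.66 to 2.01, adjusted p 0.0565 to 0.105). HES1 in LS1034 was called lower than in HT-29 (-1.77, edgeR adjusted p = 0.0369). With the replicate number as a block among the cancer lines only, a fit chosen after seeing the data, this was -1.5 (adjusted p = 0.0676). With the block over all libraries it was -1.58 (adjusted p = 0.0637), and without HT-29 library 2 it was -0.09 (adjusted p = 0.896). It also missed the threshold without any 1 of the LS1034 libraries (-1.77 to -1.75, adjusted p 0.0880 to 0.103).

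HES4, the other target and a relative of HES1 that mice lack, was called against CCD841CoN in no line. It stood at 12.8, 32.8 and 40.0 CPM in LoVo and at 14.2, 24.1 and 33.4 CPM in LS1034. It stood at 9.01, 34.7 and 28.1 CPM in HT-29 and at 19.6, 49.2 and 79.4 CPM in HCT116, against 34.0, 28.5 and 32.5 CPM in CCD841CoN. Every cancer line overlaps CCD841CoN, and library 1 is the lowest in each of the 4 cancer lines. The log2 fold changes were -0.67 to 0.32 (edgeR adjusted p 0.306 to 0.634), and no pair of cancer lines was called (lowest adjusted p 0.161). HCT116 was nonetheless the highest cancer line within each library number. With the block among the cancer lines LoVo, LS1034 and HT-29 stood below HCT116 by log2 differences of -0.76, -0.88 and -0.95 (edgeR adjusted p 0.00405 to 0.0188), all under the fold limit. With the block over all libraries the adjusted p was 0.0485 to 0.119. Per kilobase of exon, HES4 had 30.5 CPM and HES1 1.83 CPM in CCD841CoN, while in HT-29 HES4 had 23.0 CPM and HES1 137 CPM. Without HT-29 library 2 the HT-29 values were 17.9 CPM for HES4 and 41.5 CPM for HES1.

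**Figure D1:**
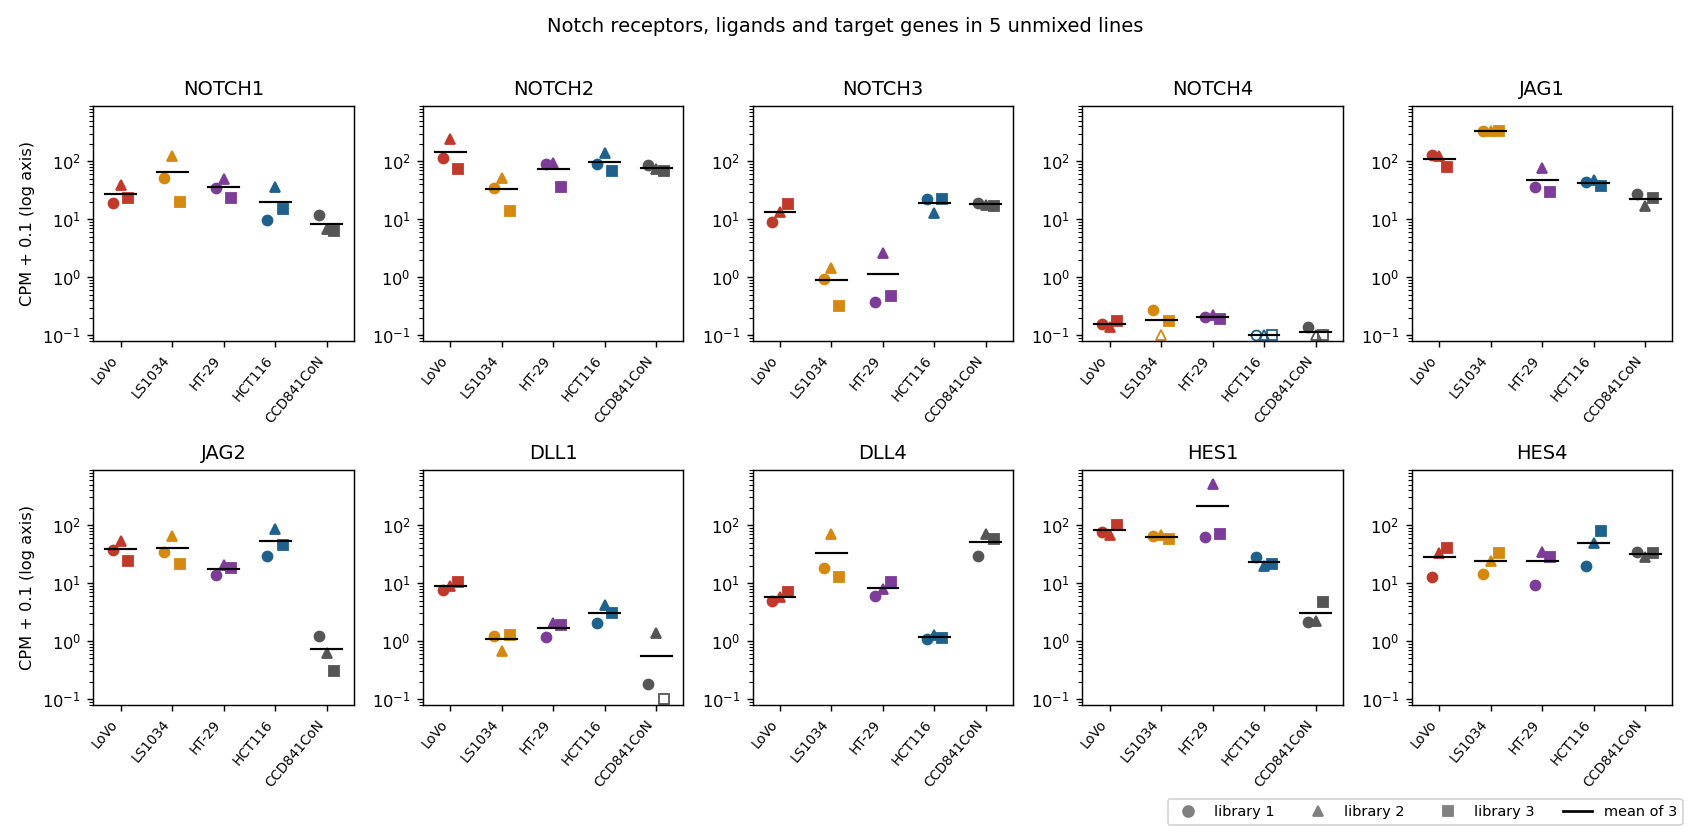
CPM of the 10 genes (log axis, CPM + 0.1) in each unmixed library of LoVo, LS1034, HT-29, HCT116 and CCD841CoN, with 1 point per library, a line at the mean of 3 and open symbols for libraries with 0 counts. All 12 cancer libraries of JAG1, JAG2 and HES1 sit above the 3 CCD841CoN libraries, DLL4 in HCT116 sits near 1 CPM, and HES1 in HT-29 library 2 stands at 518 CPM.

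Among the ligands JAG2 differed most from CCD841CoN. JAG2 was at 36.7, 52.3 and 24.3 CPM in LoVo and at 34.3, 65.8 and 21.3 CPM in LS1034. It was at 13.9, 20.1 and 18.2 CPM in HT-29 and at 29.5, 84.3 and 45.7 CPM in HCT116, against 1.14, 0.514 and 0.206 CPM in CCD841CoN. No cancer library overlaps CCD841CoN, and library 2 is the highest in each cancer line. The ratio of mean CPM to CCD841CoN was 61.1 in LoVo, 65.4 in LS1034, 28.1 in HT-29 and 85.9 in HCT116. The log2 fold changes were 5.41 ± 0.59, 5.56 ± 0.59, 4.39 ± 0.57 and 5.91 ± 0.60 in the same lines (edgeR adjusted p 7e-07 to 8.66e-06). HCT116, LS1034 and LoVo were not told apart (adjusted p 0.58 for LS1034 against HCT116 and 0.848 for LoVo against LS1034). HT-29 was called lower than HCT116 (-1.52, edgeR adjusted p = 0.0188), a call that missed the threshold without HT-29 library 1 (-1.42, 0.0789) or HCT116 library 2 (-1.10, 0.109). With the block among the cancer lines JAG2 in LS1034 was also called above HT-29 (1.06, edgeR adjusted p = 0.0316), but not with the block over all libraries (1.05, adjusted p = 0.0539).

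JAG1, the ligand altered in Alagille syndrome, had its highest level in LS1034. It was at 130, 123 and 79.5 CPM in LoVo and at 335, 333 and 333 CPM in LS1034. It was at 36.2, 78.1 and 29.2 CPM in HT-29 and at 43.9, 47.0 and 37.5 CPM in HCT116, against 27.3, 16.6 and 23.6 CPM in CCD841CoN. All 12 cancer libraries lie above CCD841CoN, closely so in HT-29 library 3. JAG1 rose by 1.96 ± 0.32 in LoVo (edgeR adjusted p = 9.85e-05) and 3.61 ± 0.35 in LS1034 (edgeR adjusted p = 3.04e-07) on the log2 scale. In HT-29 the value of 0.82 ± 0.32 missed the fold limit (edgeR adjusted p = 0.0404). It ran from 0.21 without HT-29 library 2 (adjusted p = 0.58) to 1.05 without HT-29 library 3 (adjusted p = 0.0137). In HCT116 it was 0.61 ± 0.32 (edgeR adjusted p = 0.114). LS1034 stood above each other cancer line by 1.65 to 3.0 in absolute log2 difference (edgeR adjusted p 4.3e-06 to 0.000964), and HT-29 and HCT116 were not told apart (0.20, edgeR adjusted p = 0.649). LoVo was called above HT-29 (1.15, edgeR adjusted p = 0.0111) and HCT116 (1.35, edgeR adjusted p = 0.00487). LoVo against HT-29 missed a limit without LoVo library 1 or HT-29 library 1 or 3 (0.92 to 1.02, adjusted p 0.0520 to 0.0598).

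DLL4, a ligand best known from endothelial tip cells, was lower than CCD841CoN in 3 of the 4 cancer lines. It was at 4.81, 5.55 and 6.78 CPM in LoVo and at 18.4, 69.0 and 12.4 CPM in LS1034. It was at 5.99, 7.86 and 10.3 CPM in HT-29 and at 0.999, 1.16 and 1.02 CPM in HCT116, against 28.8, 68.8 and 57.8 CPM in CCD841CoN. LoVo, HT-29 and HCT116 lie wholly below CCD841CoN, whereas LS1034 library 2 reaches it. DLL4 fell by 3.51 ± 0.54 in LoVo, 2.93 ± 0.53 in HT-29 and 5.91 ± 0.62 in HCT116 on the log2 scale (edgeR adjusted p 9.97e-07 to 0.000231). In LS1034 the value was -0.95 ± 0.49 (edgeR adjusted p = 0.118), and -2.08 without LS1034 library 2 (adjusted p = 0.00096). HCT116 was the lowest line against each other cancer line (log2 differences 2.40 to 4.97, edgeR adjusted p 8.03e-06 to 0.00386), and LoVo and HT-29 were not told apart (-0.58, edgeR adjusted p = 0.416). LoVo stood below LS1034 (-2.56, edgeR adjusted p = 0.00146), by -1.5 without LS1034 library 2. LS1034 over HT-29 was 1.98 (edgeR adjusted p = 0.00893), and 0.95 without LS1034 library 2 (adjusted p = 0.101).

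Of the listed endothelial markers, 7 have a row and 2 reached 1 CPM in CCD841CoN: TEK at 217 ± 30.0 CPM and EGFL7 at 20.2 CPM. KDR had no count there, and VWF was at 0.698 CPM, TIE1 at 0.172 CPM, CLDN5 at 0.428 CPM and ESAM at 0.689 CPM. The list summed to 24.9 to 127 CPM in the cancer libraries and 208 to 260 CPM in CCD841CoN, and PECAM1 and CDH5 were not analysed here. TEK made up most of the CCD841CoN sum. EGFL7 was higher than in CCD841CoN in LoVo (42.1 CPM), LS1034 (32.1 CPM) and HCT116 (70.0 CPM), and lower in HT-29 (4.82 CPM). ESAM was higher in LoVo (15.8 CPM), HT-29 (86.1 CPM) and HCT116 (9.93 CPM), and was at 0.532 CPM in LS1034. The list therefore had no single direction. The part of endothelial genes in the DLL4 difference was not tested.

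DLL1, the ligand of secretory progenitors in the mouse crypt, was low outside LoVo. DLL1 was at 7.59, 8.97 and 10.1 CPM in LoVo and at 1.14, 0.583 and 1.19 CPM in LS1034. It was at 1.08, 1.96 and 1.76 CPM in HT-29 and at 1.97, 4.13 and 2.91 CPM in HCT116, against 0.0812, 1.29 and 0 CPM in CCD841CoN, where the counts were 2, 15 and 0. LoVo and HCT116 lie above CCD841CoN, while LS1034 and HT-29 overlap it through CCD841CoN library 2. DLL1 rose by 4.01 ± 0.90 in LoVo (edgeR adjusted p = 0.00142) and 2.44 ± 0.87 in HCT116 (edgeR adjusted p = 0.0268) on the log2 scale. The HCT116 call missed the threshold without HCT116 library 2 or CCD841CoN library 1 or 3 (1.84 to 2.11, adjusted p 0.0791 to 0.108). LS1034 was at 0.88 ± 0.87 and HT-29 at 1.61 ± 0.87 (edgeR adjusted p = 0.413 and 0.133). Without CCD841CoN library 2, the one with 15 counts, all 4 lines were called, at 6.89 in LoVo, 3.76 in LS1034, 4.50 in HT-29 and 5.32 in HCT116 (adjusted p 2.74e-05 to 0.00349). LoVo was called above LS1034 (3.13, edgeR adjusted p = 0.00943) and above HT-29 (2.40, edgeR adjusted p = 0.0329). The HT-29 difference missed the threshold without any 1 of its 6 libraries (2.20 to 2.58, adjusted p 0.0543 to 0.109).

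The 4 receptors did not move together. NOTCH1, the main crypt receptor together with NOTCH2 in the mouse, was at 19.3, 39.4 and 23.1 CPM in LoVo and at 51.8, 126 and 20.01 CPM in LS1034. It was at 33.9, 49.4 and 22.9 CPM in HT-29 and at 9.57, 35.6 and 14.7 CPM in HCT116, against 11.7, 6.60 and 6.19 CPM in CCD841CoN. 11 of the 12 cancer libraries lie above CCD841CoN, the exception being HCT116 library 1, and library 2 is the highest in each cancer line. NOTCH1 rose by 1.37 ± 0.56 in LoVo, 2.68 ± 0.58 in LS1034 and 1.84 ± 0.57 in HT-29 on the log2 scale (edgeR adjusted p = 0.0489, 0.00108 and 0.0124). In HCT116 it was 0.92 ± 0.56 (edgeR adjusted p = 0.173). The LS1034 value was 1.78 without LS1034 library 2 (adjusted p = 0.0138). The LoVo call missed a limit without any LoVo library or CCD841CoN library 2 or 3 (0.99 to 1.53, adjusted p 0.0644 to 0.205). The HT-29 call missed the threshold without HT-29 library 2 (1.45, 0.0691) or CCD841CoN library 3 (1.67, 0.0511). In the 0.1% mixtures, which were nearly all CCD841CoN RNA, NOTCH1 stood at 10.3 to 15.8 CPM.

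Between cancer lines NOTCH1 was called higher in LS1034 than in HCT116 (1.76, edgeR adjusted p = 0.0202). Without LS1034 library 2 this was 0.90 (adjusted p = 0.212), and it also missed the threshold without HCT116 library 1 or 3 (1.46 and 1.60, adjusted p 0.0871 and 0.0681). LoVo over LS1034 was -1.31 (edgeR adjusted p = 0.0841), and -1.09 with the block among the cancer lines (adjusted p = 0.0265). The same block called HT-29 above HCT116 (1.03, edgeR adjusted p = 0.0319). The block over all libraries called neither (adjusted p = 0.053 and 0.0754). LoVo and HT-29 were called apart in none of these fits.

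NOTCH2 was at 113, 244 and 72.4 CPM in LoVo and at 34.4, 52.2 and 14.0 CPM in LS1034. It was at 90.0, 94.5 and 36.2 CPM in HT-29 and at 89.6, 138 and 68.3 CPM in HCT116, against 86.3, 72.5 and 67.1 CPM in CCD841CoN. LS1034 lies below CCD841CoN in all 3 libraries, and the other lines overlap it. NOTCH2 fell by 1.47 ± 0.46 in LS1034 on the log2 scale (edgeR adjusted p = 0.0136), and was -1.12 without LS1034 library 3 (adjusted p = 0.0726). The other lines ran from -0.30 to 0.56 (edgeR adjusted p 0.313 to 0.925), and the HCT116 value of 0.06 changed sign with DESeq2's scaling. LoVo stood above LS1034 (2.03, edgeR adjusted p = 0.00367), and LS1034 below HCT116 (-1.53, edgeR adjusted p = 0.0153). That HCT116 difference missed the threshold without LS1034 library 1 or 3 or HCT116 library 2 (-1.53 to -1.12, adjusted p 0.0541 to 0.0994). LS1034 was also called below HT-29 with the block among the cancer lines (-1.24, edgeR adjusted p = 0.000486) and over all libraries (-1.22, adjusted p = 0.00384). NOTCH2 has partial copies in the human genome, and how reads shared with them were counted is not given in the sources used here, so its level is uncertain.

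NOTCH3, the receptor of vascular smooth muscle and pericytes, split the lines into high and low. NOTCH3 was at 9.03, 13.2 and 18.3 CPM in LoVo and at 0.847, 1.37 and 0.224 CPM in LS1034. It was at 0.278, 2.49 and 0.370 CPM in HT-29 and at 22.0, 12.8 and 22.5 CPM in HCT116, against 19.3, 17.6 and 17.0 CPM in CCD841CoN. LS1034 and HT-29 lie wholly below CCD841CoN, whereas LoVo and HCT116 overlap it. NOTCH3 fell by 4.70 ± 0.73 in LS1034 and 4.33 ± 0.72 in HT-29 on the log2 scale (edgeR adjusted p = 5.09e-05 and 9.88e-05). LoVo was at -0.75 ± 0.61 and HCT116 at -0.21 ± 0.61 (edgeR adjusted p = 0.319 and 0.797), and the sign of the HCT116 value turned with scaling on library size alone. LoVo and HCT116 each stood above LS1034 and HT-29 by 3.58 to 4.50 in absolute log2 difference (edgeR adjusted p 0.000137 to 0.001). Within each of these pairs no difference was called (-0.54 for LoVo against HCT116, -0.37 for LS1034 against HT-29, edgeR adjusted p = 0.571 and 0.741). Mural cell markers, fixed as a list of 8, summed to 11.0 to 101 CPM in the cancer libraries and to 2486 to 2863 CPM in CCD841CoN. In CCD841CoN 6 of the 8 reached 1 CPM, with ACTA2 at 1226, MCAM at 657 and TAGLN at 579 CPM the highest. MYH11 (0.592 CPM) and DES (0.0286 CPM) did not. These went the other way, with means of 0.749 to 2.01 CPM for MYH11 and 0.0491 to 6.69 CPM for DES in the cancer lines. By line the sum was 11.0 to 18.9 CPM in LoVo, 12.2 to 17.4 CPM in LS1034, 17.5 to 70.7 CPM in HT-29 and 57.01 to 101 CPM in HCT116. The part of these cells' genes in the NOTCH3 differences was not tested.

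NOTCH4, a receptor mainly of endothelium, was near the floor everywhere. It had counts of 2, 1 and 1 in LoVo, 6, 0 and 1 in LS1034, 3, 3 and 1 in HT-29, 0 in every HCT116 library, and 1, 0 and 0 in CCD841CoN. The highest level was 0.175 CPM. The count of 0 in HCT116 allows up to 0.0399 CPM over its 3 libraries, at 3 counts over the group, and no fold is given for this gene.

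Counted per line, 6 members were called in LoVo, 5 higher and 1 lower, where 48.0% of all tested genes were called (26.4% higher, 21.6% lower). In LS1034 it was 6, 4 higher and 2 lower, against 47.1% of all genes (25.7% higher, 21.4% lower). In HT-29 it was 5, 3 higher and 2 lower, against 45.7% (24.7% higher, 20.9% lower), and in HCT116 it was 4, 3 higher and 1 lower, against 46.7% (25.4% higher, 21.2% lower). With 9 members tested, the counts in HT-29 and HCT116 are near the share of all genes. The members' median log2 fold change was 1.37 in LoVo, 0.88 in LS1034, 0.82 in HT-29 and 0.61 in HCT116, and that of all tested genes was 0.21 to 0.24.

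Averaged over the 4 lines, the called members in order of size were JAG2 (5.32 ± 0.55), HES1 (4.35 ± 0.64), DLL4 (-3.32 ± 0.34), NOTCH3 (-2.50 ± 0.43), DLL1 (2.23 ± 0.77), JAG1 (1.75 ± 0.28) and NOTCH1 (1.70 ± 0.49), with edgeR adjusted p of 3.67e-07 to 0.0206. NOTCH2 and HES4 were at -0.29 ± 0.35 and -0.38 ± 0.41 (edgeR adjusted p = 0.499 and 0.451), and the sign for NOTCH2 turned with scaling on library size alone. The DLL1 call missed the threshold without CCD841CoN library 1 or 3 (1.64 and 1.70, adjusted p 0.106 and 0.0783), and without CCD841CoN library 2 it was 5.12 (adjusted p = 0.000161), which changes the place of DLL1 in this order. A bulk library cannot tell fewer expressing cells from less RNA per cell.

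**Figure D2:**
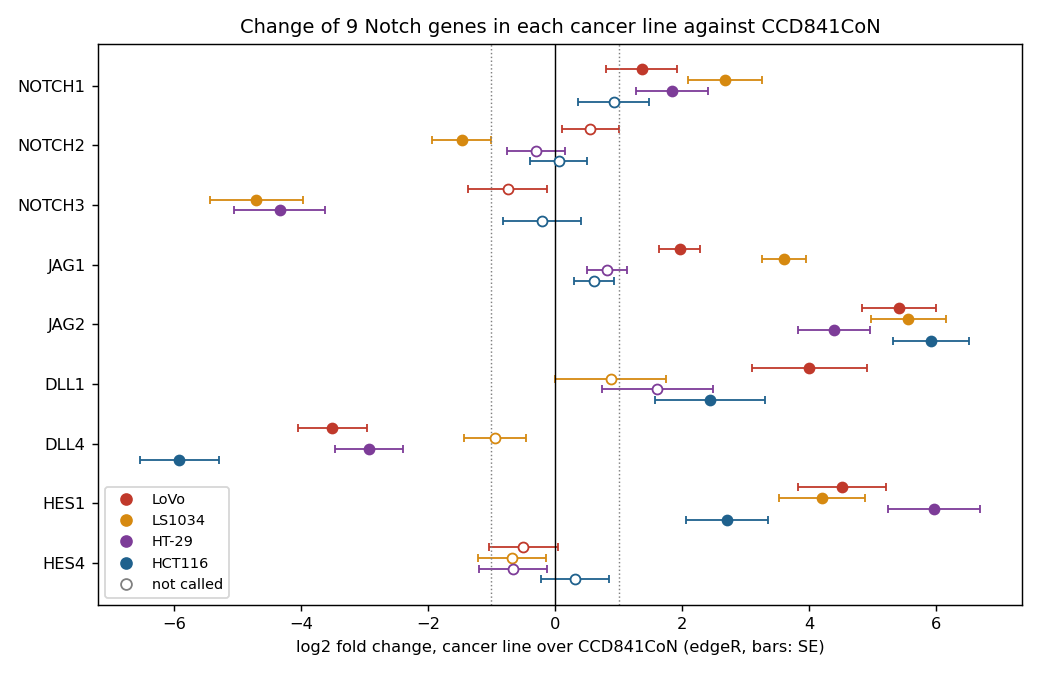
Log2 fold change (± SE) of the 9 tested genes in LoVo, LS1034, HT-29 and HCT116 against CCD841CoN. Filled points were called, open points were not, and dotted lines mark the fold limit of 1 in each direction. JAG2 lies between 4.39 and 5.91 in every line, while NOTCH3 divides LS1034 and HT-29 from LoVo and HCT116.

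Between cancer lines, the members called numbered 5 for LoVo against LS1034, 3 for LoVo against HT-29 and 3 for LoVo against HCT116. The shares of all genes called in the same pairs were 26.0%, 27.2% and 22.1%. There were 3 for LS1034 against HT-29, 5 for LS1034 against HCT116 and 4 for HT-29 against HCT116, and the shares of all genes were 22.6%, 32.9% and 30.6%. JAG1 and DLL4 were called in 5 of the 6 pairs each, NOTCH3 in 4, and HES4 in none.

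Per kilobase of exon, the most abundant ligand was DLL4 in CCD841CoN, at 15.1 CPM, where JAG1 had 3.79 CPM and JAG2 0.106 CPM. In LS1034 JAG1 was the most abundant ligand at 56.2 CPM per kilobase, followed by DLL4 at 9.68 and JAG2 at 6.94 CPM per kilobase. JAG1 led in LoVo and HT-29 too, at 18.7 and 8.05 CPM per kilobase, and in HCT116 JAG2 had 9.11 and JAG1 7.21 CPM per kilobase. Without HCT116 library 2 that order turned, with 6.44 for JAG2 and 6.85 for JAG1. The order of DLL4 and JAG2 in LS1034 turned likewise without LS1034 library 2, with 4.48 for DLL4 and 4.76 for JAG2. Among receptors NOTCH2 led in LoVo, HT-29, HCT116 and CCD841CoN, at 8.90, 4.58, 6.13 and 4.68 CPM per kilobase. NOTCH1 led in LS1034, at 7.07 CPM per kilobase against 2.09 for NOTCH2. Exon lengths come from GENCODE v29 on GRCh38, where the genes lie on several chromosomes, for example NOTCH1 at chr9:136494433-136545786, JAG1 at chr20:10637684-10673999, JAG2 at chr14:105140981-105168824 and DLL4 at chr15:40929333-40939073.

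The wider pathway was read from a list of 58 other genes, of which 57 had a row and 55 were tested. In the mean of the 4 lines 14 were called higher and 8 lower, with a median log2 fold change of 0.34 against 0.22 for all genes, and 0.34 too with the 3 genes that had no count in CCD841CoN set at their bound. Both counts lie near or under the share of all genes, 24.8% higher and 22.3% lower. The group with most members called higher was that of the other target genes, with 5 of 8 higher and none lower. The pattern within the receptor-cutting proteases was 0 higher and 2 lower (NCSTN and APH1B) of 9, and in the nuclear complex 1 higher and 1 lower of 6.

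NRARP, a target gene whose protein feeds back on the Notch intracellular domain, had the largest log2 fold change of the list in the mean of the 4 lines, at 9.99 ± 0.65 (edgeR adjusted p = 1.41e-09). It was at 69.5, 81.2 and 91.4 CPM in LoVo and at 40.6, 85.4 and 46.9 CPM in LS1034. It was at 82.0, 226 and 85.9 CPM in HT-29 and at 18.5, 21.4 and 26.9 CPM in HCT116, against 0.0406, 0 and 0.103 CPM in CCD841CoN, where the counts were 1, 0 and 1. NRARP was highest in HT-29 library 2 and lowest among cancer lines in HCT116, as HES1 was. The ratio of its mean over the 12 cancer libraries to CCD841CoN was 1523, with a counting interval of 422 to 12576. HES6, an inhibitor of HES1 in mouse neural progenitors, averaged 75.9 CPM in the cancer libraries and 6.90 CPM in CCD841CoN (log2 fold change 3.01 ± 0.51, edgeR adjusted p = 1e-04).

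Among the proteases and the nuclear complex, NCSTN, APH1B and RBPJ were called lower, which is near the share of all genes called lower. NCSTN, the nicastrin subunit of gamma-secretase, averaged 108 CPM in the cancer libraries and 302 CPM in CCD841CoN (-1.80 ± 0.16, edgeR adjusted p = 5.97e-08). APH1B, another gamma-secretase subunit, averaged 11.2 CPM in the cancer libraries and 56.7 CPM in CCD841CoN (-2.65 ± 0.25). RBPJ itself averaged 75.1 CPM in the cancer libraries and 187 CPM in CCD841CoN (-1.64 ± 0.21, edgeR adjusted p = 5.75e-06). All 3 were called lower in each of the 4 lines. MAML3, a Mastermind coactivator, was the nuclear complex gene called higher, at 11.5 CPM in the cancer libraries and 1.13 CPM in CCD841CoN (2.53 ± 0.63).

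Regulators of receptor turnover and co-repressors went both ways. NUMB, which promotes receptor endocytosis, averaged 97.8 CPM in the cancer libraries and 182 CPM in CCD841CoN (-1.22 ± 0.16). Its relative NUMBL averaged 12.4 CPM in the cancer libraries and 56.2 CPM in CCD841CoN (-2.90 ± 0.30). DTX3, of the Deltex family, averaged 0.0914 CPM in the cancer libraries and 12.5 CPM in CCD841CoN (-8.48 ± 0.63). ITCH, a ubiquitin ligase of the receptor, averaged 114 CPM in the cancer libraries and 40.4 CPM in CCD841CoN (1.16 ± 0.32). These 4 calls cover the inhibitors and turnover regulators, 1 higher and 3 lower of 7 tested.

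Among 9 co-repressor genes, 3 were called higher and 2 lower. SPEN, which holds RBPJ targets silent, averaged 66.3 CPM in the cancer libraries and 19.4 CPM in CCD841CoN (1.39 ± 0.34). HDAC1, a histone deacetylase, averaged 357 CPM in the cancer libraries and 133 CPM in CCD841CoN (1.05 ± 0.19). TLE3, a Groucho co-repressor as are TLE1, TLE2 and TLE4, averaged 54.1 CPM in the cancer libraries and 15.1 CPM in CCD841CoN (1.36 ± 0.27). TLE4 averaged 9.26 CPM in the cancer libraries and 31.6 CPM in CCD841CoN (-3.38 ± 0.50). TLE1 averaged 45.5 CPM in the cancer libraries and 50.1 CPM in CCD841CoN (-1.37 ± 0.20), and its fold change was -4.60 in LS1034 but 0.91 in HT-29. TLE2 was called in opposite directions, at 33.8 CPM in LoVo (3.07) and 30.5 CPM in HCT116 (2.97), but 0.616 CPM in LS1034 (-2.62), against 3.16 CPM in CCD841CoN. DTX4 was likewise higher in HT-29 at 68.4 CPM (1.5) and lower in HCT116 at 6.90 CPM (-1.87), against 20.2 CPM in CCD841CoN. The Groucho and Deltex genes thus had no single direction.

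**Figure D3:**
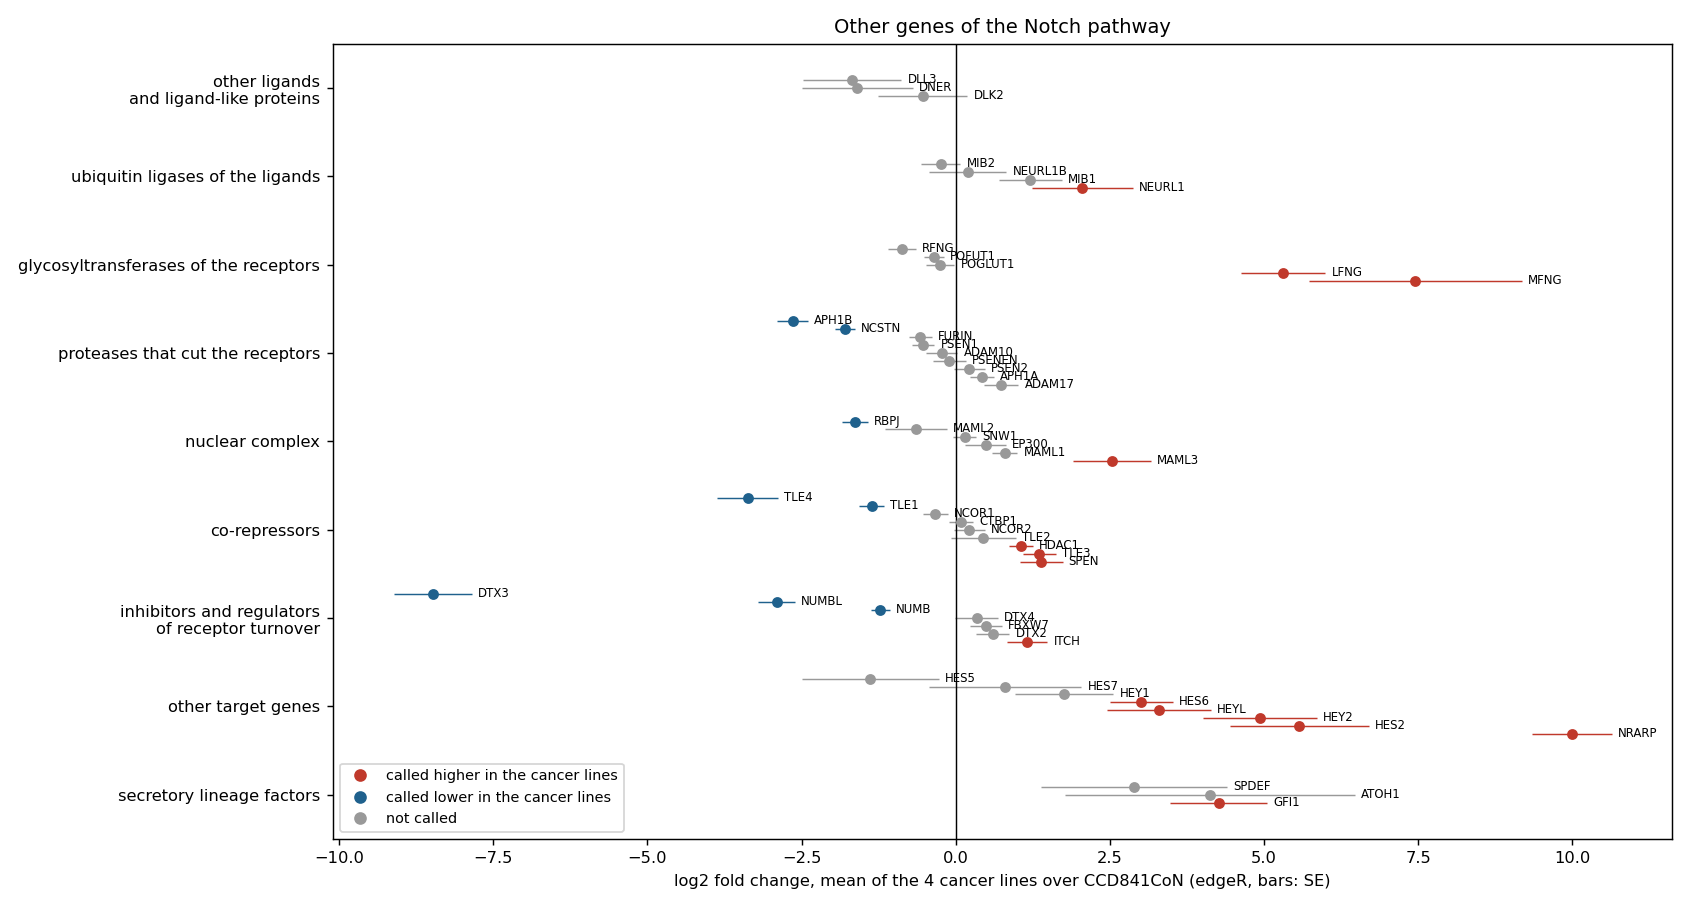
Log2 fold change (± SE) of the tested pathway genes in the mean of the 4 cancer lines against CCD841CoN, grouped by role and coloured by call, with NEUROG3 left out because its fit gave no usable SE. NRARP lies highest, at 9.99, and DTX3 lowest, at -8.48.

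Over the 15 unmixed libraries, the genes whose log2(CPM + 1) followed each member most closely were listed by Pearson r among 12304 genes, as a description. For HES1 they were NRARP (0.959) and ACP6 (0.957). For JAG2 they were JPH1 (0.974) and POLR1B (0.969), for JAG1 PTK2B (0.952) and SAMD5 (0.949), for DLL1 N4BP3 (0.950) and FOXD2 (0.947), and for DLL4 TNC (0.938) and PRSS23 (0.917). For NOTCH1 they were NUP214 (0.921) and ZNF646 (0.921), for NOTCH2 FAM189B (0.953) and KIF1B (0.950), for NOTCH3 FKBP1B (0.980) and GMPR (0.978), and for HES4 CCDC124 (0.899) and SF3B4 (0.873). Between members r was 0.702 for NOTCH1 with JAG2, 0.695 for NOTCH1 with HES1, 0.689 for JAG2 with HES1, -0.633 for JAG2 with DLL4 and -0.203 for HES1 with HES4. The points are 5 lines of 3 libraries that share their line and depth, so 5 levels carry most of each r.

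In the RNA mixtures the 10 and 50% mixtures were each compared with the 0.1% mixtures. The 1% mixtures were not tested against them, so the lowest percentage at which a member departs was not determined. At 50% against 0.1%, 6 of the 9 tested members were called at an adjusted p under 0.05, 3 higher and 3 lower, where 54.2% of 13212 genes were called (30.1% higher, 24.1% lower). At 10% against 0.1% 2 were called, both higher, where 7.39% of genes were called (6.21% higher, 1.18% lower). Those 2 were HES1 and JAG2. The 4 cancer lines served as blocks with 1 library each per percentage.

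HES1 had the clearest rise. In the LoVo series it was at 2.90, 3.68, 12.1 and 47.2 CPM at 0.1, 1, 10 and 50%, and in the LS1034 series at 2.90, 2.57, 10.7 and 37.6 CPM. In the HT-29 series it was at 2.29, 2.95, 12.9 and 44.8 CPM, and in the HCT116 series at 1.22, 2.23, 3.63 and 12.4 CPM. At 10 and 50% every series lies above its own 0.1 and 1% values. HES1 rose by 1.98 ± 0.25 at 10% (edgeR adjusted p = 0.000118) and 3.74 ± 0.26 at 50% (edgeR adjusted p = 5.08e-08) against 0.1% on the log2 scale. At 50% the level expected from the unmixed means was 41.7 CPM in LoVo, 32.8 in LS1034 and 12.8 in HCT116, so that observed over expected was 1.13, 1.15 and 0.967. In HT-29 it was 0.409 of 110 CPM, and 1.31 of 34.2 CPM without unmixed HT-29 library 2. The single HT-29 library at 518 CPM thus has no counterpart in the HT-29 mixtures.

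JAG2 was at 0.227, 0.351, 2.20 and 14.0 CPM at 0.1, 1, 10 and 50% LoVo, and at 0.0483, 0.360, 2.64 and 13.6 CPM with LS1034. It was at 1.38, 0.438, 1.93 and 8.68 CPM with HT-29 and at 0.153, 1.18, 5.31 and 26.4 CPM with HCT116. All 4 series are highest at 50%, and the 10% mixtures lie above all 0.1% mixtures, of which the one with HT-29 is the highest. JAG2 rose by 2.68 ± 0.67 at 10% (edgeR adjusted p = 0.0246) and 5.00 ± 0.70 at 50% (edgeR adjusted p = 4.27e-05) against 0.1%. The 10% call missed the threshold without the LoVo, LS1034 or HCT116 mixtures (2.21 to 2.45, adjusted p 0.147 to 0.173), and without the HT-29 mixtures it was 4.17 (adjusted p = 0.000571).

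JAG1 was at 31.6, 23.7, 72.6 and 186 CPM at 0.1, 1, 10 and 50% LS1034, and at 24.7, 25.05, 34.2 and 56.5 CPM with LoVo. It was at 28.8, 32.1, 35.5 and 28.3 CPM with HT-29 and at 26.7, 27.2, 32.5 and 31.9 CPM with HCT116. The change lies in the LS1034 and LoVo series, the lines with the highest unmixed levels. At 50% against 0.1% JAG1 was at 1.00 ± 0.37 (edgeR adjusted p = 0.0329), and at 0.39 without the LS1034 mixtures (adjusted p = 0.183) and 1.00 without the LoVo mixtures (adjusted p = 0.135).

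DLL4 was at 21.8, 30.0, 28.1 and 22.1 CPM at 0.1, 1, 10 and 50% LoVo, and at 26.1, 27.3, 29.8 and 20.3 CPM with LS1034. It was at 22.1, 31.3, 19.6 and 16.9 CPM with HT-29 and at 30.7, 28.1, 25.8 and 15.9 CPM with HCT116. The 50% values overlap the 0.1% values through the LoVo series. DLL4 fell by 0.54 ± 0.15 on the log2 scale at 50% against 0.1% (edgeR adjusted p = 0.00886), and was -0.36 without the HCT116 mixtures (adjusted p = 0.0896). The 0.1% mixtures stood at 0.422 to 0.594 of the 51.8 CPM expected from the mean of the unmixed CCD841CoN libraries, and nearest to CCD841CoN library 1 at 28.8 CPM. With that library alone as the CCD841CoN level, observed over expected at 50% was 1.28 in LoVo, 0.654 in LS1034, 0.919 in HT-29 and 1.06 in HCT116. That setting was not planned.

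NOTCH3 at 50% was at 17.5 CPM in LoVo, 7.82 in LS1034, 6.78 in HT-29 and 19.0 in HCT116, against 14.7 to 24.3 CPM at 0.1%. The mixtures with LS1034 and HT-29, the low lines, lie below all 0.1% mixtures. The difference was -0.78 ± 0.31 (edgeR adjusted p = 0.0465), and was -0.47 without the LS1034 mixtures (adjusted p = 0.266) and -0.60 without those of HT-29 (adjusted p = 0.137). NOTCH2 was at 55.2 to 83.9 CPM at 50% and 88.3 to 101 CPM at 0.1%, with no overlap, and fell by 0.58 ± 0.12 on the log2 scale (edgeR adjusted p = 0.000998). At 0.1%, observed over expected was 1.17 to 1.35. At 50% it was 0.768 of 109 CPM with LoVo and 0.923 of 86.9 CPM with HCT116, although both expected levels lie above CCD841CoN at 75.3 CPM. With LS1034 it was 1.09 of 54.4 CPM and with HT-29 0.742 of 74.4 CPM. The cause of the NOTCH2 fall was not tested.

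The remaining members were not called in the mixtures. NOTCH1 was at 12.3 to 16.9 CPM at 50% and 10.3 to 15.8 CPM at 0.1% (0.07 ± 0.16, edgeR adjusted p = 0.749). At 0.1%, observed over expected NOTCH1 was 1.25 with LoVo, 1.61 with LS1034, 1.93 with HT-29 and 1.63 with HCT116. The 0.1% values with LS1034, HT-29 and HCT116 lie above the highest unmixed CCD841CoN library, at 11.7 CPM, and the cause was not tested. In the LS1034 series the 50% NOTCH1 value of 16.9 CPM was 0.458 of the 37.0 CPM expected. That expected level leans on unmixed LS1034 library 2, as the LS1034 mean was 65.8 CPM with it and 35.9 CPM without it. HES4 was at 30.9 to 57.3 CPM at 50% and 30.3 to 34.3 CPM at 0.1% (0.14 ± 0.13, edgeR adjusted p = 0.375). DLL1 was at 0.248 to 7.51 CPM at 50%, highest with LoVo, and 0 to 0.917 CPM at 0.1% (1.76 ± 1.36, edgeR adjusted p = 0.29). NOTCH4 had 0 to 3 counts in every mixture. The pathway gene NRARP was at 0 to 0.367 CPM at 0.1%, 0.154 to 1.37 CPM at 1%, 2.66 to 14.5 CPM at 10% and 14.2 to 58.4 CPM at 50%.

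**Figure D4:**
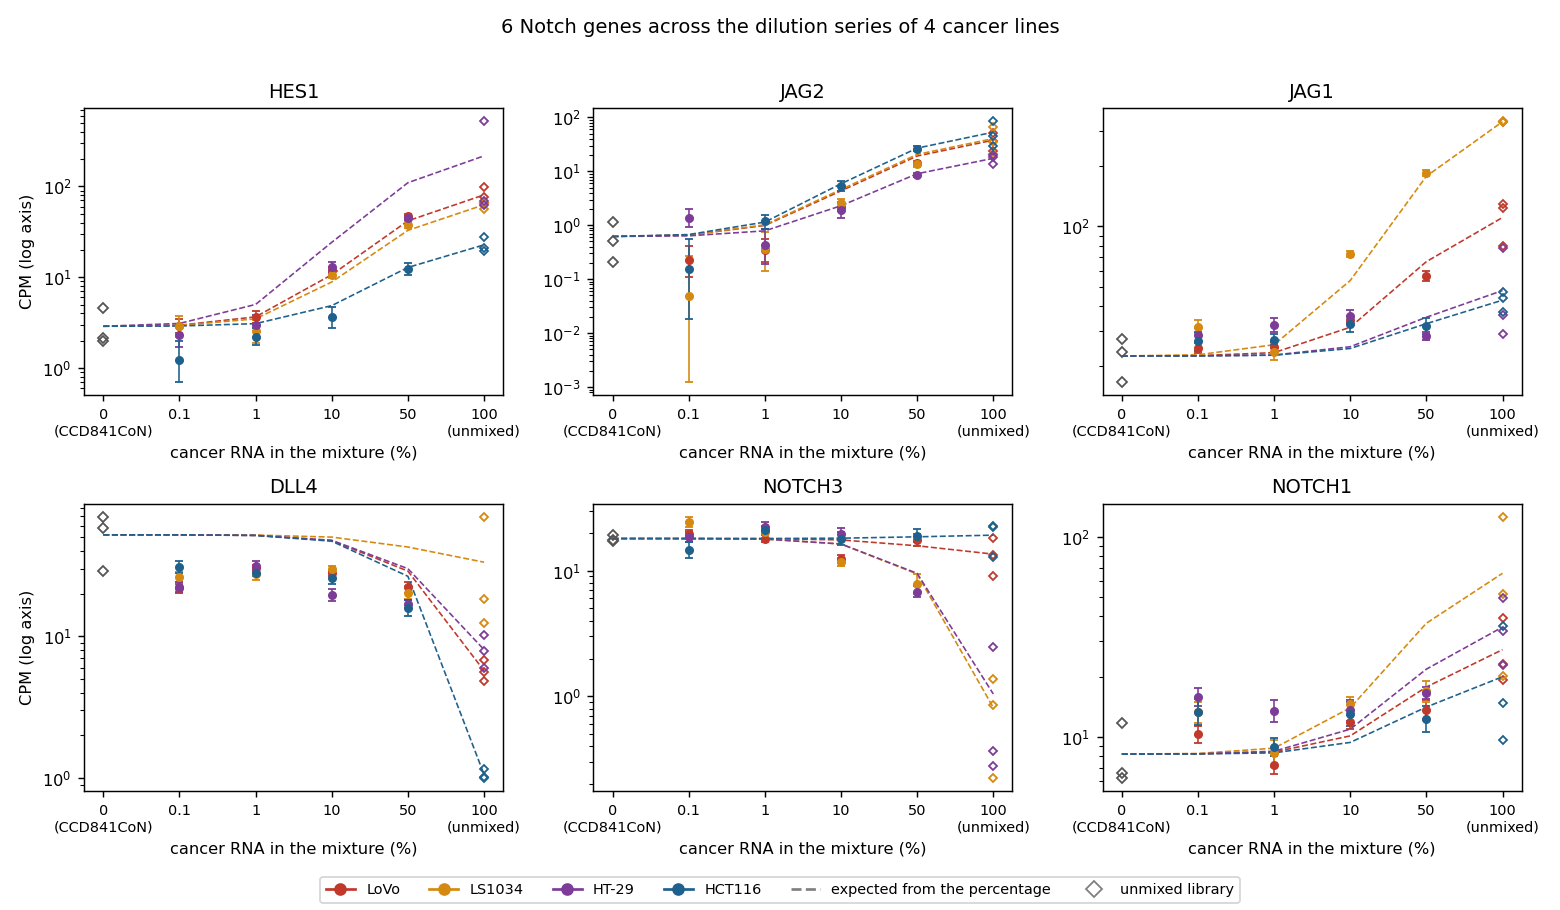
CPM of HES1, JAG2, JAG1, DLL4, NOTCH3 and NOTCH1 (log axis) against the percentage of cancer RNA, drawn as evenly spaced steps, with 1 colour per cancer line. Points are single mixtures with their 95% counting interval, dashed lines the level expected from the unmixed means, and diamonds the unmixed libraries of CCD841CoN at the left and the cancer lines at the right. HES1 in the HT-29 series lies under its dashed line at 50% (44.8 against 110 CPM), and DLL4 lies under its dashed line at 0.1% in all 4 series.

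Over members with an expected level of at least 5 CPM, observed and expected lay within 1.5-fold in 17 of 24 values at 0.1%, 19 of 25 at 1%, 23 of 28 at 10% and 26 of 32 at 50%. With CCD841CoN library 1 alone as the CCD841CoN level the counts were 24 of 24, 24 of 25, 26 of 28 and 28 of 32. That setting was not planned, and DLL4 in the 0.1% mixtures lay nearest to library 1, so the higher counts are no independent support. Without CCD841CoN library 1 the counts were 15, 18, 21 and 25. They were 20, 22, 25 and 27 without library 2 and 19, 21, 23 and 26 without library 3. The share of cancer RNA was also read from genes high in the cancer line against CCD841CoN. In the 50% mixtures it was 48.5% for LoVo, 56.2% for LS1034, 57.3% for HT-29 and 51.3% for HCT116. In the same order it was 10.3, 13.6, 15.4 and 11.3% in the 10% mixtures and 1.07, 1.45, 1.81 and 1.24% in the 1% mixtures. In the 0.1% mixtures it was 0.140, 0.160, 0.207 and 0.145%. Except for LoVo at 50%, each share lay above its label. With these shares in place of the labels, the counts within 1.5-fold were 17, 19, 23 and 26.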

How the data were processed

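The deposited values were whole-number counts per protein-coding gene made by the authors, who aligned reads to hg19 with STAR and counted them with featureCounts, per the submitters' processing notes; versions and the use of strand are not given in the sources used here. Libraries came from a stranded kit with ribosomal RNA removal, per the labels' protocols. Separate cultures are not stated for the 3 libraries of 1 line, so p-values measure the spread between libraries, which may be technical.

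The 15 unmixed libraries were fitted together in edgeR 4.0.16 (R 4.3.3, limma 3.58.1) with TMM scaling, filterByExpr and the quasi-likelihood test, with Benjamini-Hochberg adjustment over all tested genes. The 16 mixtures were fitted with the percentage as 4 levels and the cancer line as a block, and were called on the adjusted p alone. The scripts were also run on simulated data, but without the fold limit of the unmixed calls, so that rule was not tested there. DESeq2 1.42.0 served as an alternative, and levels and figures were made in Python 3.11.15 (matplotlib 3.10.9, scipy 1.17.1, pandas 2.3.3, numpy 2.4.6). CPM used the plain library total, and intervals and floors (95%, 3 counts) cover counting error only. The level expected in a mixture is the mean CPM of the unmixed lines weighted by the labelled percentage, and the share of cancer RNA was read from genes at 5 CPM or more and a log2 fold change of 5 or more in the cancer line.

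Named beside the members are pathway genes called in the mean of the 4 lines with a mean of at least 10 CPM in either group, those called in opposite directions in 2 lines, the 2 genes most like each member, and markers. The members and lists were chosen with earlier results of these data known. Same-numbered libraries of different cancer lines deviated together (r 0.175 to 0.544, 18 of 18 matching best by number), so blocked values stand beside the calls that they change, from a block among the cancer lines only, which was added after seeing the data, and from the block over all libraries. With CCD841CoN this held in 2 of 12 (r -0.0408 to 0.0217).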

Additional observations from a re-analysis of the deposited data

Results flagged for a closer look

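The size of a member's difference from CCD841CoN itself differed between cancer lines in 23 cases, each tested as the difference of the log2 fold changes, which is the direct contrast of the 2 lines in the same edgeR fit. The adjusted p-values are in the account of each gene. Some cases were lost on leaving out 1 library. These were DLL1 and JAG1 in LoVo against HT-29, HES1 in LoVo against HCT116, and HES1 and DLL4 in LS1034 against HT-29. Lost likewise were NOTCH1 and NOTCH2 in LS1034 against HCT116 and JAG2 in HT-29 against HCT116. The contrasts share libraries, so the cases are not independent.

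JAG1 gave -1.65 for LoVo against LS1034, 1.15 for LoVo against HT-29, 1.35 for LoVo against HCT116, 2.80 for LS1034 against HT-29 and 3.0 for LS1034 against HCT116. DLL4 gave -2.56 for LoVo against LS1034, 2.40 for LoVo against HCT116, 1.98 for LS1034 against HT-29, 4.97 for LS1034 against HCT116 and 2.98 for HT-29 against HCT116. NOTCH3 gave 3.95 for LoVo against LS1034, 3.58 for LoVo against HT-29, -4.50 for LS1034 against HCT116 and -4.12 for HT-29 against HCT116.

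HES1 gave 1.80 for LoVo against HCT116, -1.77 for LS1034 against HT-29 and 3.26 for HT-29 against HCT116. Without HT-29 library 2, HES1 gave -0.09 for LS1034 against HT-29 and 1.58 for HT-29 against HCT116. NOTCH2 gave 2.03 for LoVo against LS1034 and -1.53 for LS1034 against HCT116. DLL1 gave 3.13 for LoVo against LS1034 and 2.40 for LoVo against HT-29. NOTCH1 gave 1.76 for LS1034 against HCT116, and JAG2 gave -1.52 for HT-29 against HCT116.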

How the results depend on the processing

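Of 1028 member log2 fold changes recomputed under other settings, 955 kept their direction and side of the threshold, 58 lost a call, 5 gained one and 10 reversed, none of these 10 a call. The tally holds every tested member against CCD841CoN. For pairs of cancer lines and for mixtures it holds only members called in the first place. Calls gained in other pairs or mixtures, such as those with a replicate block, are therefore not in it. Of 59 calls, 42 were never lost, and 8 of 50 member levels moved beyond their SD with TMM-scaled CPM. The reversed values were for NOTCH2 in HCT116 (-0.10 with RLE scaling and with DESeq2, -0.023 with the replicate block over all libraries, against 0.06), NOTCH2 in the mean of the lines (0.029 on library size, against -0.29) and NOTCH3 in HCT116 (0.089 on library size, against -0.21), and, on leaving out 1 library, NOTCH2 in LoVo (-0.065 to 0.86, lowest without LoVo replicate 2), HT-29 (-0.60 to 0.016, highest without HT-29 replicate 3) and HCT116 (-0.29 to 0.25, below 0 without HCT116 replicate 2 or CCD841CoN replicate 3) and HES4 in HCT116 (-0.24 to 0.65, lowest without HCT116 replicate 3). The causes were not tested.

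The 10% mixtures called 976 genes, against 1590 with DESeq2, 502 without the line block and 556 to 725 on leaving out 1 line. Members called there were 1 without the line block and 1 to 2 on leaving out 1 line, against 2. LoVo against HT-29 called 1 to 2 members on leaving out 1 library, against 3, and 50% mixtures called 4 to 5 members on leaving out 1 line, against 6.

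Library-size scaling put the median of all genes against CCD841CoN at 0.45 to 0.56, against 0.21 to 0.24 with TMM. The split of higher and lower calls was then 4793 and 2562 in LoVo (3822 and 3119 with TMM), 4650 and 2517 in HCT116 (3676 and 3066) and 891 and 26 at 10% (820 and 156).

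NOTCH1 in LoVo missed the threshold with RLE scaling (1.24, adjusted p = 0.074) and DESeq2 (1.25, 0.0557). NOTCH3 at 50% missed it with RLE (-0.75, 0.05) and on library size (-0.66, 0.0903), and NOTCH2 in LS1034 on library size (-1.16, 0.0567). With only the groups compared, DLL1 in HCT116 (2.40, 0.0626) and HES1 in LS1034 against HT-29 (-1.79, 0.0874) missed it, and JAG2 at 10% did so without the line block (2.67, 0.0628). NOTCH4 passed the filter on low counts in neither set of libraries, and was called in no comparison without that filter.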

Other observations

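Some pathway genes outside the naming rule were chosen after their values were seen. SPDEF, a goblet cell factor, was at 50.6 ± 1.85 CPM in HT-29 (SD, n = 3) and at most 0.0786 CPM as a mean in any other line. ATOH1 and NEUROG3, factors of the secretory and endocrine lineages that HES1 is known to repress, averaged 3.24 and 3.45 CPM in HT-29, and neither had a count in CCD841CoN. HT-29 also held the highest HES1 library, at 518 CPM, and its HES1 mean without that library was 65.5 CPM. A relation of HES1 to ATOH1 or NEUROG3 was not tested. GFI1, another secretory factor, averaged 19.5 CPM in LoVo and 7.70 CPM in HCT116, against 0.0947 CPM in CCD841CoN.

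The Fringe glycosyltransferases, which set ligand preference of the receptors, also differed by line. LFNG averaged 15.99 CPM in LS1034, 17.7 CPM in HT-29, 1.85 CPM in LoVo and 2.27 CPM in HCT116, against 0.128 CPM in CCD841CoN. MFNG averaged 9.05 CPM in LS1034 and had no count in CCD841CoN. Of the HES and HEY target genes, HES2 averaged 19.9 CPM in LoVo, HEY2 8.35 CPM in LoVo and 6.15 CPM in LS1034, and HEYL 19.3 CPM in HCT116 and 8.93 CPM in LoVo. In CCD841CoN HES2 averaged 0.0406 CPM, HEY2 0.0135 CPM and HEYL 0.356 CPM.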
